A study of Homo sapiens with 6 samples.

Results

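The chemokine genes that epithelial cells can express are described here through 9 members, CXCL1, CXCL2, CXCL3, CXCL5, CXCL8, CXCL10, CXCL11, CXCL16 and CCL20, taken by symbol from a table of 61806 genes. Each of the 9 had a row, 7 had at least 1 count in some library, and 5 passed the filter on low counts and were tested among 15687 genes. The data are RNA-seq of HCT116 cells, an established human line from a colorectal carcinoma, a tumour of epithelium. Of 6 libraries, 3 are controls (si-NC, genotype wildtype per the labels) and 3 are of cells in which STRIP2 was knocked down by RNA interference (si-STRIP2). The title of the study names STRIP2, LCN2 and ferroptosis, and the comparison asks which transcripts differ when STRIP2 is lowered. The duplex sequences, their dose and the time of harvest are not given in the sources used here. The titles number the libraries of each group, and these numbers are called replicates here. They do not say whether all si-STRIP2 libraries had the same duplex. The loss of STRIP2 and any other effect of the duplex or duplexes used therefore cannot be told apart. Separate cultures are not mentioned in the labels, so p-values measure the spread between these libraries, which may be technical.

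Chemokines are small secreted proteins that steer the migration of white blood cells through receptors on their surface, and epithelial cells make a characteristic set of them. Those that carry the residues glutamate, leucine and arginine before the CXC cysteines (CXCL1, CXCL2, CXCL3, CXCL5 and CXCL8) attract neutrophils through CXCR2, and CXCL8 also acts through CXCR1. CXCL10 and CXCL11 are interferon-inducible ligands of CXCR3, CXCL16 is made as a membrane protein that binds CXCR6 and can be shed by ADAM10 and ADAM17, and CCL20 is the ligand of CCR6. NF-kB is the main known activator of most of these genes, AP-1 contributes at CXCL8, and the messenger RNAs of several of them are short-lived because of AU-rich words in the 3′ UTR.

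The total counts ranged from 17184963 to 21721218. STRIP2 itself was at 3.19, 3.77 and 3.81 FPKM (fragments scaled by exonic length and by the library total) in si-NC and at 2.71, 2.53 and 2.58 in si-STRIP2, which left 72.8% of the control level (log2 fold change -0.46, SE 0.083, with an edgeR adjusted p = 1.62e-05, SE being the standard error). Of 8 epithelial markers, 7 were tested. Of these, 5 were called lower, 1 higher (KRT19, 0.22) and 1 was not called (KRT8). Over all tested genes, 27.0% were called lower and 27.8% higher. The called changes of EPCAM (-0.11) and KRT18 (-0.18) were small. EPCAM averaged 206 FPKM in si-NC and 191 in si-STRIP2, KRT8 130 and 126, and KRT18 195 and 172. CDH1, the epithelial cadherin, went from 36.6 to 24.2 FPKM (-0.60) and CLDN7, a claudin, from 66.9 to 49.4 (-0.44). KRT20, a differentiation keratin, went from 0.627 to 0.313 (-1.01), and VIL1 had at most 3 counts in a library. Their part in the chemokine results was not tested. Among 13 markers of leukocytes, fibroblasts and endothelium, COL1A1 was the 1 gene that passed the filter. The summed level of that list was 2.68 to 3.22 FPKM in si-NC and 2.28 to 2.83 in si-STRIP2, PTPRC had at most 5 counts in a library, and FCGR3B had none.

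Of the 9 genes, 7 lie on chromosome 4, and 5 of these sit in a cluster with the other genes for neutrophil-attracting CXC chemokines. The stretch of promoter just before the RefSeq start is shown for the 4 cluster genes that were detected, for the silent cluster gene CXCL5 and for CCL20 on chromosome 2, since these are the sequences on which their known activators act. Each line runs 5′ to 3′ on the strand of the gene, from base -140 to base -41 relative to the start, in RefSeq on GRCh38.p14. Capitals mark matches, on either strand, to GGNNTTTCC (a pattern that covers many NF-kB sites) and to TGANTCA (AP-1).

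CXCL8, chr4:73740429-73740528, plus strand: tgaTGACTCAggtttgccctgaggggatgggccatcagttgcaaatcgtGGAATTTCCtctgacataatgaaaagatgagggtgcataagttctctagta
CXCL1, chr4:73869253-73869352, plus strand: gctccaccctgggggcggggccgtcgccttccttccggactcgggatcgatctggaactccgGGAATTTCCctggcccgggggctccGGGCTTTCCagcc
CXCL2, chr4:74099236-74099335, minus strand: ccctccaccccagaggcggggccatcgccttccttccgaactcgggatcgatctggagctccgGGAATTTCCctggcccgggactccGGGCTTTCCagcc
CXCL3, chr4:74038730-74038829, minus strand: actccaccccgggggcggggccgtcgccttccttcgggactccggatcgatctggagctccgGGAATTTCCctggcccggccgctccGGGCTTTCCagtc
CXCL5, chr4:73998718-73998817, minus strand: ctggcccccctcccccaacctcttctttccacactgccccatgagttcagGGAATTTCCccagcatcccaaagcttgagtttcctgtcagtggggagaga
CCL20, chr2:227813702-227813801, plus strand: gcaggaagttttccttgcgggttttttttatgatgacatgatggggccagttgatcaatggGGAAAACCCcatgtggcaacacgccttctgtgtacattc

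Among these 6 genes, the RefSeq starts of CXCL8, CXCL3, CXCL2 and CCL20 differ from those in the deposited table. The 9 letters GGAATTTCC occur on the strand of the gene in CXCL1, CXCL2, CXCL3, CXCL5 and CXCL8, and on the other strand in CXCL10 and CXCL11. They lie at bases -78 to -70 in CXCL1 and CXCL3, -77 to -69 in CXCL2, -90 to -82 in CXCL5 and -91 to -83 in CXCL8. CXCL1, CXCL2 and CXCL3 share a further match, GGGCTTTCC, at bases -53 to -45. In CCL20 the match lies on the other strand at bases -79 to -71. Over the whole table of 35116 promoters, each 300 bases long (250 before the start and 50 after it), 6.26% held GGNNTTTCC and 0.461% held the exact letters GGAATTTCC on either strand, letters that were picked after the sequences of the members were seen. All 8 members with a promoter in the table held GGNNTTTCC, a pattern that was not part of the planned comparisons. The printed stretches of CXCL1, CXCL2 and CXCL3 closely resemble one another, so these are not 8 independent matches. TGANTCA was found in CXCL8 (bases -137 to -131) and CXCL11, against 7.71% of all promoters. GAAANNGAA, which overlaps the interferon-stimulated element, was found in CXCL2, CXCL3 and CXCL10, against 8.11% of all promoters. A match describes the letters and does not show a bound site. CXCL16 has no entry in the table.

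CXCL8 and the closely related CXCL2, CXCL1 and CXCL3 were all lower in si-STRIP2 cells, by 6.85-fold, 4.01-fold, 3.69-fold and 2.18-fold, and CXCL16 was lower by 1.20-fold. CCL20 had 41 counts over the si-NC libraries and 11 over the si-STRIP2 libraries and was not tested, and CXCL5, CXCL10 and CXCL11 were at or near 0 in every library. All 5 tested members were called at an edgeR adjusted p under 0.05, where 54.8% of all tested genes were called in either direction, 27.0% were called lower and 27.8% higher. With at least a 2-fold fall, 4 of the 5 were called, where 2.91% of all tested genes were. The si-STRIP2 libraries lay below all si-NC libraries for each of the 5, which was so for 28.7% of tested genes. Each of the 5 reached the count needed by the filter in all 6 libraries, so none was tested through its si-NC level alone. In bulk RNA, fewer cells that make a transcript and less transcript per cell cannot be told apart.

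**Figure D1:**
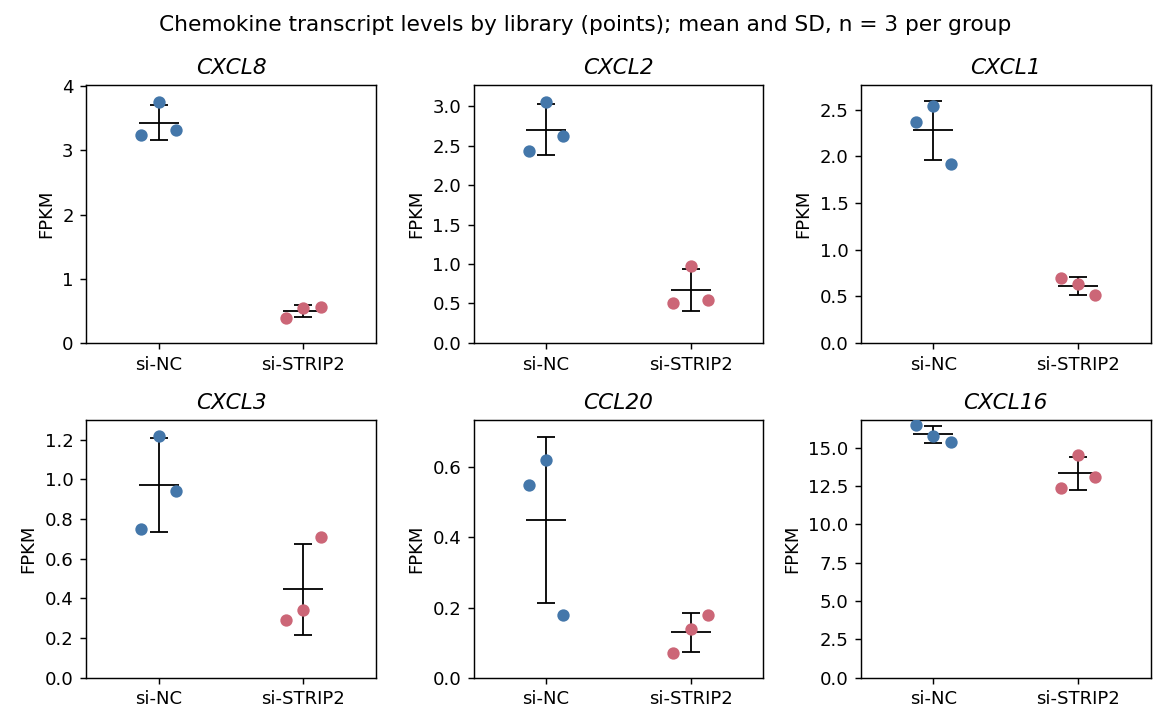
FPKM of the 6 chemokine genes with at least 10 counts in all, by group, with 1 point per library and the mean and SD as bars (n = 3 per group, each vertical axis on its own linear scale from 0). The si-STRIP2 points of CXCL8 sit between 0.39 and 0.56, far below the si-NC points between 3.24 and 3.75, while those of CXCL16 sit close to the control.

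CXCL8 (interleukin 8, ENSG00000169429, chromosome 4, 73740519 to 73743716) had the largest change of the 5 tested members. It had 182, 168 and 147 counts in the si-NC libraries and 19, 25 and 25 in the si-STRIP2 libraries. Its level was 3.24, 3.75 and 3.31 FPKM in si-NC and 0.39, 0.55 and 0.56 in si-STRIP2. The groups were well apart, and the spread within each was small beside the distance between them. The mean went from 3.43 ± 0.276 to 0.50 ± 0.0954 FPKM (SD, n = 3), and the fitted log2 fold change was -2.78 (SE 0.170; edgeR adjusted p = 1.28e-15). Of the 4240 genes called lower, 14 had a lower log2 fold change.

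CXCL2 (ENSG00000081041, chromosome 4, 74097040 to 74099196) and CXCL1 (ENSG00000163739, chromosome 4, 73869393 to 73871308), the growth-regulated oncogene chemokines, fell by similar amounts. CXCL2 was at 2.44, 3.06 and 2.62 FPKM in si-NC and at 0.50, 0.98 and 0.54 in si-STRIP2, a log2 fold change of -2.004 (SE 0.236, edgeR adjusted p = 7.49e-09). The si-STRIP2 library with 0.98 FPKM, replicate 2, was the highest of its group and still under all controls. CXCL1 was at 2.37, 2.54 and 1.92 FPKM in si-NC and at 0.70, 0.63 and 0.51 in si-STRIP2, a log2 fold change of -1.88 (SE 0.241, edgeR adjusted p = 3.99e-08). The 2 estimates differed by less than either standard error.

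CXCL3 (ENSG00000163734, chromosome 4, 74036589 to 74038807), the third member of that subgroup, had 36, 47 and 36 counts in si-NC and 12, 13 and 27 in si-STRIP2. In FPKM it was at 0.75, 1.22 and 0.94 in si-NC and at 0.29, 0.34 and 0.71 in si-STRIP2. The groups were separated only by the step from 0.71 in si-STRIP2 replicate 3 to 0.75 in si-NC replicate 1. Its fitted log2 fold change was -1.13 (SE 0.290; edgeR adjusted p = 0.00134). Without si-STRIP2 replicate 3 it was -1.63, and over the 6 fits that left out 1 library it ranged from -1.63 to -0.87, and it was short of a 2-fold fall without si-STRIP2 replicate 1 (-0.87), si-NC replicate 2 (-0.94) or si-STRIP2 replicate 2 (-0.97). CXCL1, CXCL2 and CXCL3 resemble one another in sequence: 12.5% of the distinct 50-base words in the transcripts of CXCL2 occur in another member, against 6.01% for CXCL3 and 4.81% for CXCL1 (GENCODE 29). Reads from those stretches may be dropped or shared, and the read length and the treatment of such reads are not given in the sources used here. The transcripts of CXCL8, CXCL16 and CCL20 shared no 50-base word with another member.

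**Figure D2:**
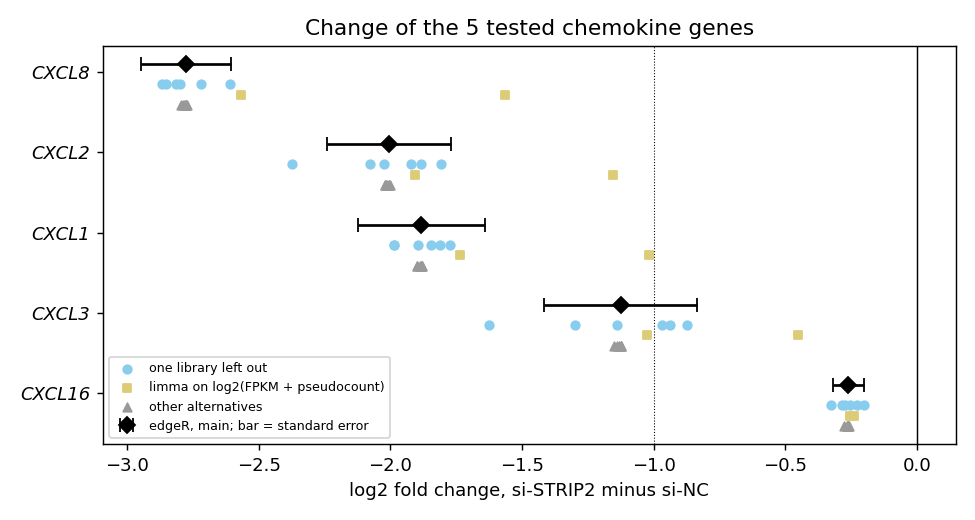
log2 fold change (si-STRIP2 minus si-NC) of the 5 tested genes, with the standard error of the edgeR estimate as a bar, and 15 alternative fits as smaller points (14 for CXCL3). All points lie left of 0, and the dotted line marks a 2-fold fall, which the points of CXCL3 straddle and those of CXCL16, between -0.32 and -0.20, do not reach.

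CXCL5 (ENSG00000163735), the remaining neutrophil-attracting member, had 0 counts in all 6 libraries. At these depths a count of 0 allows up to 3 counts, or 0.0567 to 0.0717 FPKM, in a library (counting error only). It was therefore not detectable at this depth in either group.

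CXCL16 (ENSG00000161921, chromosome 17, 4733533 to 4739928), the membrane-bound member, was the most abundant of the 9. It was at 16.5, 15.8 and 15.4 FPKM in si-NC and at 12.4, 14.5 and 13.1 in si-STRIP2. Every si-STRIP2 library was below every control, but the step between the groups, from 14.5 to 15.4, was small. Its fitted log2 fold change was -0.26 (SE 0.060; edgeR adjusted p = 0.000402), and 3090 genes that were called lower had a lower value. CXCL16 overlaps ZMYND15 and MED11, which together held 24.7% as many counts. Whether strand was used in counting is not given in the sources used here.

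CCL20 (ENSG00000115009, chromosome 2, 227805739 to 227817564), the CCR6 ligand, had 19, 17 and 5 counts in si-NC and 2, 4 and 5 in si-STRIP2. These are 0.55, 0.62 and 0.18 FPKM against 0.07, 0.14 and 0.18. The si-NC library with 5 counts, replicate 3, was level with si-STRIP2 replicate 3, so the groups touched. CCL20 did not pass the filter, which only 2 of its libraries, both si-NC, reached. With no filter its log2 fold change was -1.79 (SE 0.498, edgeR adjusted p = 0.00190), while limma gave an adjusted p of 0.0685 on log2(FPKM + 1) and 0.0675 on log2(FPKM + 0.1). Fits that left out a library could include CCL20 through its si-NC level alone and are not used for it.

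The CXCR3 ligands gave almost no reads. CXCL10 (ENSG00000169245) had 1 count in si-NC replicate 1, 1 in si-STRIP2 replicate 3 and 0 elsewhere, and CXCL11 (ENSG00000169248) had 0 in all libraries. In the libraries where it was found, a count of 0 allows up to 0.136 to 0.149 FPKM for CXCL10 and 0.0776 to 0.0980 for CXCL11. A difference between the groups was not detectable for either at this depth.

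In the order of FPKM, the control cells had CXCL16 first at 15.9 ± 0.557 (SD, n = 3), then CXCL8, CXCL2, CXCL1, CXCL3 and CCL20. The ranges of CXCL2 and CXCL1 overlapped in si-NC, and those of the other neighbours down to CCL20 did not. In si-STRIP2 the order was CXCL16 (13.3 ± 1.08), CXCL2 (0.673 ± 0.266), CXCL1 (0.613 ± 0.0961), CXCL8 (0.50 ± 0.0954), CXCL3 (0.447 ± 0.229) and CCL20 (0.130 ± 0.0557). There the ranges of each neighbouring pair from CXCL2 to CXCL3 overlapped, so that CXCL8 no longer stood above the others.

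The 9 genes together summed to 25.8 ± 1.32 FPKM in the controls and to 15.7 ± 1.40 FPKM after si-STRIP2 (SD, n = 3). Within that sum, CXCL8 made up 12.5%, 13.9% and 13.6% in the si-NC libraries and 2.72%, 3.21% and 3.58% in the si-STRIP2 libraries. CXCL16 made up 63.7%, 58.5% and 63.2% in si-NC and 86.4%, 84.6% and 83.7% in si-STRIP2. The si-STRIP2 libraries did not overlap the controls for the shares of CXCL16, CXCL8, CXCL2 and CXCL1, with an exact permutation p of 0.1 each (2-sided, the smallest that 3 against 3 allows, 0.15 after adjustment over 6 members). These directions depend on the denominator: with CXCL16 left out of the sum, the share of CXCL1 was higher in si-STRIP2 by 3.47 percentage points and that of CXCL2 by 0.466, in place of changes of -4.88 and -6.29, while that of CXCL8 changed by -14.04 in place of -10.2. The share of CXCL3 went from 3.76% ± 0.816 to 2.85% ± 1.46 (exact permutation p = 0.4) and that of CCL20 from 1.72% ± 0.854 to 0.818% ± 0.331 (SD, n = 3, exact permutation p = 0.3), and both were higher in si-STRIP2 without CXCL16, by 8.74 and 0.849 points. CXCL1, CXCL2, CXCL3 and CXCL8 together went from 36.4% ± 2.60 to 14.2% ± 0.935 of the sum.

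**Figure D3:**
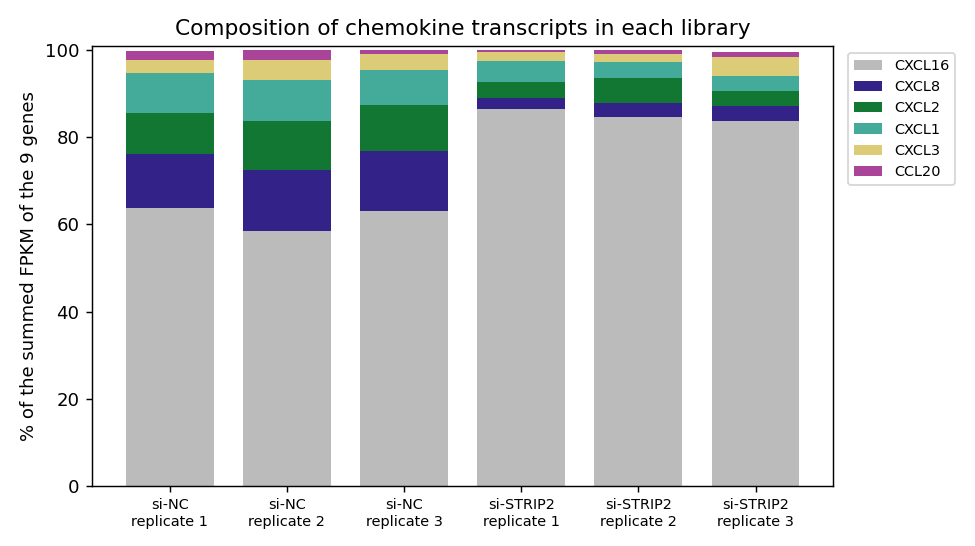
Share of each gene in the summed FPKM of the 9 chemokine genes, in percent, with 1 bar per library and bars starting at 0. CXCL16 takes 58.5% to 63.7% in si-NC and 83.7% to 86.4% in si-STRIP2, and the CXCL8 segment shrinks from 12.5% or more to 3.58% or less.

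The 4 detected cluster genes share their position. From the lowest coordinate of CXCL8 to the highest of CXCL2, a span of 359 kb, the table lists 19 genes, of which 14 had no count in any library. The 4 that were tested are CXCL8, CXCL1, CXCL3 and CXCL2. Each was called lower, as already given for the members, where 27.0% of all tested genes were called lower. The silent genes of the cluster include CXCL6, PF4V1, PF4 and PPBP, which encode further CXC chemokines, and the pseudogene CXCL1P1. UMLILO, a long noncoding RNA gene just outside that span, at -30.2 kb from the start of CXCL8, had no count either.

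With 250 kb added on either side, 8 genes were tested. RASSF6, which encodes a RAS-association domain protein, lies on the minus strand from 73571550 to 73620631. Its lowest coordinate, the end of the gene on that strand, is at -169.0 kb from the start of CXCL8. It was at 1.69, 1.72 and 1.67 FPKM in si-NC and 0.71, 0.83 and 0.81 in si-STRIP2 (log2 fold change -1.12, SE 0.113, edgeR adjusted p = 3.06e-10). EPGN, an EGF receptor ligand gene on the far side, was also lower (-1.29, SE 0.339, edgeR adjusted p = 0.00170) and was over the filter's cut in 3 si-NC and 2 si-STRIP2 libraries. MTHFD2L, a gene of mitochondrial folate metabolism between CXCL2 and EPGN, gave a log2 fold change of 0.0030 (SE 0.079, edgeR adjusted p = 0.977), with 1.79, 1.84 and 1.99 FPKM in si-NC and 2.00, 1.80 and 1.83 in si-STRIP2. The unnamed gene ENSG00000269559 lies within MTHFD2L, which had 1390% as many counts, and its value of -1.22 is uncertain for that reason. These flanking genes were named after their values were seen.

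**Figure D4:**
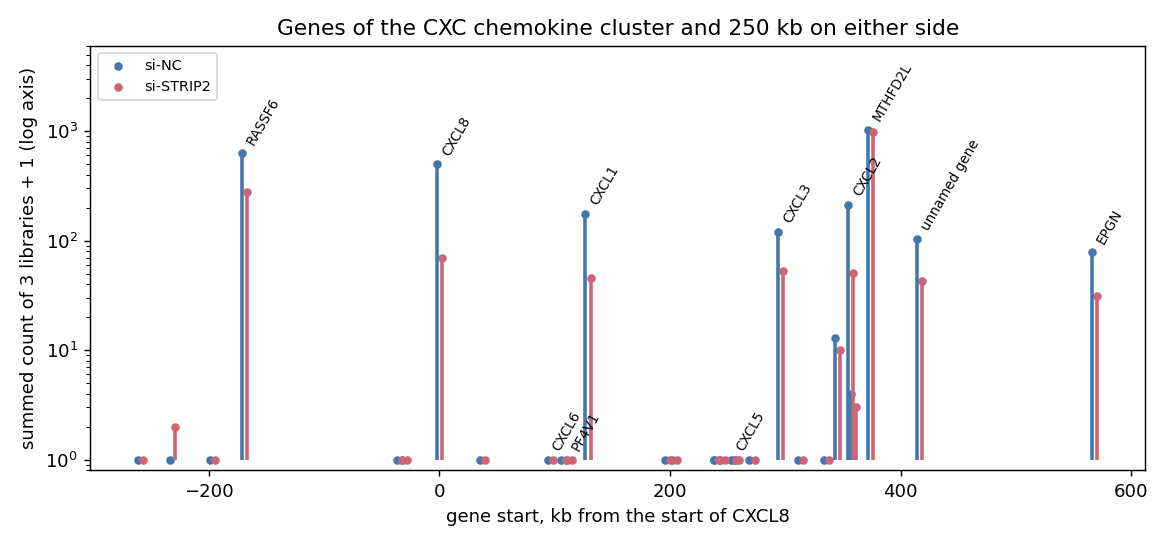
Summed counts of the 3 libraries of each group, plus 1, on a log axis, for the genes of the CXC chemokine cluster and its flanks. Genes are placed by the distance of their lowest coordinate, on either strand, from that of CXCL8 in kb. CXCL8, CXCL1, CXCL3 and CXCL2 are lower in si-STRIP2, most genes between them are at 0, and MTHFD2L beside CXCL2 is level.

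AU-rich words in the 3′ UTR are another feature that some of the members share. The 30-base window with the most copies of ATTTA, the word at the core of AU-rich elements, is shown for the 4 cluster genes and for CXCL16, with ATTTA in capitals (GENCODE 29 on GRCh38, last exon, 5′ to 3′ on the strand of the gene).

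CXCL8, chr4:73743108-73743137, plus strand: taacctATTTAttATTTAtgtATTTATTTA
CXCL1, chr4:73870665-73870694, plus strand: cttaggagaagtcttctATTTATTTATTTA
CXCL2, chr4:74097590-74097619, minus strand: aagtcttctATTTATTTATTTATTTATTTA
CXCL3, chr4:74037090-74037119, minus strand: ttacgagggttctacttATTTAtgtATTTA
CXCL16, chr17:4734303-4734332, minus strand: gccactgccctctcttaggcccctcATTTA

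The transcript with the longest 3′ UTR was used for each gene. The whole 3′ UTR held 9 copies of ATTTA in CXCL8, 10 in CXCL2, 5 in CXCL1, 7 in CXCL3 and 1 in CXCL16. Per kb these were 7.19, 13.9, 7.08, 10.4 and 1.02, where the median of 12614 tested genes with a 3′ UTR was 1.66. Of those genes, 2.51% had as many copies per kb as CXCL8, 0.333% as many as CXCL2 and 62.3% as many as CXCL16. The longer word TTATTTATT occurred 5 times in CXCL2, 3 times in CXCL1, 1 time each in CXCL3 and CXCL8 and not in CXCL16, against at least 1 copy in 9.32% of those genes. CXCL5, which was not detected, held 11 copies of ATTTA, or 5.51 per kb. CCL20, which was not tested, held 3, or 6.24 per kb, a density that 4.21% of those genes reached. CXCL10 and CXCL11 held 1 copy of ATTTA each. The longer word TTATTTATT was absent from CXCL5, CCL20, CXCL10 and CXCL11, as it was from CXCL16. A count of words describes the sequence and was not tested against the changes in level.

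The regulators of these genes were taken from a list of 24 members of the NF-kB and AP-1 systems, all of which were tested. Of these, 14 were called lower (27.0% of all tested genes were), 2 higher (27.8% of all) and 8 were not called, and the median log2 fold change was -0.21 against 0.014 over all tested genes. RELA, the main activating subunit of NF-kB, was lower by a small amount (-0.16, SE 0.046, edgeR adjusted p = 0.00413), from 12.01 ± 0.0351 to 10.8 ± 0.196 FPKM (SD, n = 3). NFKB1, its partner, was not called, at -0.068 (SE 0.053, edgeR adjusted p = 0.281). NFKBIA, the inhibitor that is itself an NF-kB target, was at 7.05, 6.33 and 6.50 FPKM in si-NC and 6.13, 5.85 and 5.66 in si-STRIP2 (-0.18, edgeR adjusted p = 0.0424). REL, a further subunit, was lower by more, from 1.06 ± 0.0462 to 0.470 ± 0.0173 FPKM (-1.17, edgeR adjusted p = 7.61e-13).

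Larger falls were found for some AP-1 and early-response genes of the list, while other AP-1 genes fell by less than REL. JUN went from 14.8 ± 0.786 to 2.42 ± 0.454 FPKM (SD, n = 3, -2.60, SE 0.082, edgeR adjusted p = 3.11e-23). FOS, its dimer partner, went from 22.1 ± 3.49 to 5.47 ± 0.690 FPKM (-2.01, edgeR adjusted p = 5.41e-20). EGR1, an early-response transcription factor, went from 38.0 ± 2.42 to 13.9 ± 0.262 FPKM (-1.45, edgeR adjusted p = 2.38e-22). FOSB had a fitted value of -3.13, but ERCC1, which overlaps it, held 367% as many counts. The direction was the opposite for FOSL1, another AP-1 subunit, which rose from 20.8 ± 1.00 to 27.7 ± 0.366 FPKM (0.41, edgeR adjusted p = 6.01e-08). The other gene called higher was IKBKB (0.58), a kinase that activates NF-kB. CHUK, a further kinase of the list, was called lower (-0.385, edgeR adjusted p = 1.23e-09). Whether these changes took part in the fall of the chemokine transcripts was not tested.

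**Figure D5:**
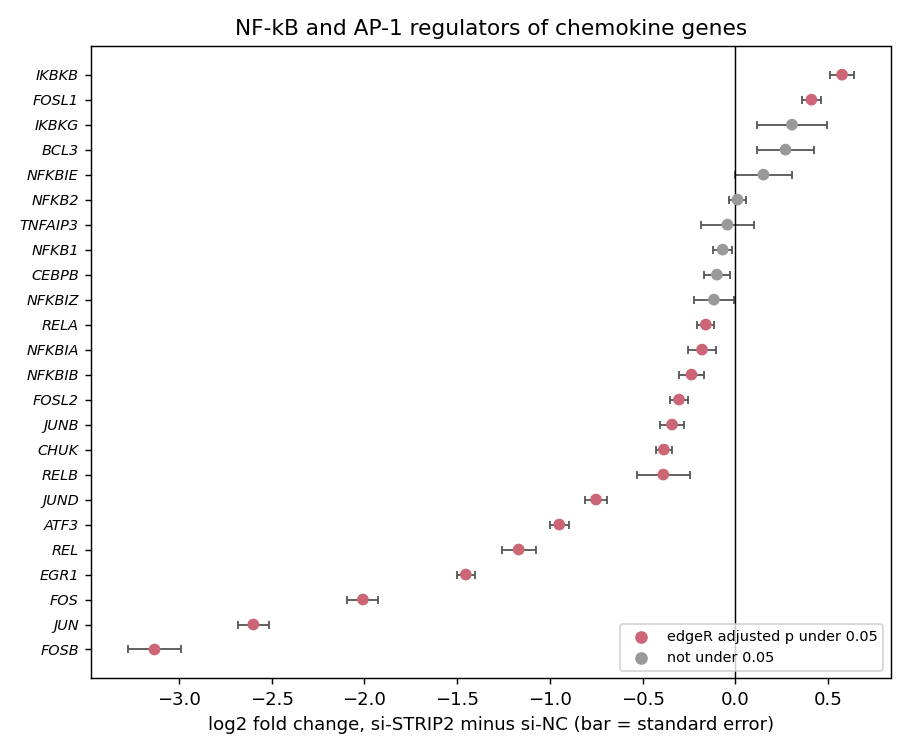
log2 fold change (si-STRIP2 minus si-NC) of the 24 NF-kB and AP-1 regulators, with standard errors as bars and genes under an adjusted p of 0.05 in red. FOSB, JUN and FOS lie furthest left at -2.01 or lower, followed by EGR1 at -1.45 and the NF-kB gene REL at -1.17. Of the other NF-kB genes, RELB lies at -0.388, CHUK at -0.385, and RELA, NFKB1 and NFKBIA between -0.18 and -0.068. FOSL1 and IKBKB, the genes called higher, lie right of 0.

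Of 16 interferon signalling genes, which include the activators of CXCL10 and CXCL11, 8 were called lower, 4 higher and 4 were not called, where 27.0% of all tested genes were called lower and 27.8% higher. Their median log2 fold change was -0.25, against 0.014 over all tested genes. IRF1, a transcription factor that acts at the CXCL10 gene, was not called (-0.14, SE 0.085, edgeR adjusted p = 0.155). SOCS1, a feedback inhibitor, had 15, 13 and 10 counts in si-NC and 5 in each si-STRIP2 library (fitted log2 fold change -1.25). It passed the filter through si-NC alone, so its call is no support for a difference, and it overlaps RMI2, which held 3894% as many.

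The receptors were nearly silent in these cells. Of 23 chemokine receptor genes, 4 had no count, 18 had counts below the filter and 1, CCR3, was tested. CCR3, an eotaxin receptor, had 28, 30 and 16 counts in si-NC and 12, 10 and 12 in si-STRIP2 (-1.05, SE 0.318, edgeR adjusted p = 0.00577). It was over the filter's cut in 3 si-NC and 2 si-STRIP2 libraries, with overlapping genes, among them CCR1, at 12.96% of its counts. CXCR2, the receptor of the neutrophil-attracting ligands, had 1, 6 and 6 counts in si-NC and 2, 7 and 5 in si-STRIP2. CXCR4, the receptor of CXCL12, had 12, 9 and 7 counts in si-NC and 3, 3 and 11 in si-STRIP2. CXCR3 had 1 count in all 6 libraries together, CCR6 had none, and CXCR6 had at most 7 in a library, where it overlaps FYCO1 with 30520% as many. Of the 35 other chemokine genes, 21 had no count, none was tested and none exceeded 7 counts in a library.

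Of 9 genes for enzymes that release or trim chemokines and their cofactors, 3 were not tested. Of the 6 tested, 4 were called lower, 1 higher (RHBDF2, a cofactor of ADAM17, at 0.28) and 1 was not called, where 27.0% of all tested genes were called lower and 27.8% higher. The median of the 6 was -0.42, against 0.014 over all tested genes. ADAM10, a sheddase of CXCL16, went from 18.9 ± 1.22 to 14.7 ± 0.297 FPKM (SD, n = 3, -0.37, SE 0.042, edgeR adjusted p = 4.34e-09). ADAM17 went from 6.64 ± 0.286 to 4.21 ± 0.114 FPKM (SD, n = 3, -0.66, edgeR adjusted p = 1.82e-14), with overlapping genes at 18.6% of its counts.

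The profile of each tested member was compared with those of 11298 tested genes with a symbol and a mean of at least 1 FPKM, by the root mean square difference over the 6 libraries in log2 CPM (counts scaled to the library total) after subtracting the si-NC mean. The nearest to CXCL8 were SPX, JUN and SPRR2D, at 0.295, 0.314 and 0.326. For CXCL1 they were SERPINB8, CCN1 and SELENOP (0.146 to 0.194), and for CXCL2 they were KRT80, APOL6 and HKDC1 (0.237 to 0.270). CXCL3 was nearest to HMGB1P31, LIVAR and CPEB2 (0.191 to 0.268), and CXCL16 to MMAB, NRF1 and MICA (0.0131 to 0.0281). No chemokine was among the 3 nearest of any member, but CXCL1, CXCL2, CXCL8 and CXCL16 were the only chemokine genes with that mean. CXCL3 (0.97 FPKM in si-NC, 0.447 in si-STRIP2) and all the others were below it. The measure largely follows the fold change, so it does not show whether chemokine genes vary together.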

How the data were processed

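RNA-seq libraries were poly(A)-selected and directional, per the labels' protocols. The submitters' processing notes list bcl2fastq 2.20.0.422, FastQC 0.10.1, cutadapt 1.9.1, HISAT2 2.2.1, HTSeq 0.6.1 and GRCh38.p13. The strand setting and the annotation release are not given in the sources used here. The authors deposited raw counts per gene and, beside them, FPKM values, per the file headers.

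Counts were tested with edgeR 4.0.16 in R 4.3.3: filterByExpr (minimum count 10), TMM scaling, group as the only term, the 2-sided quasi-likelihood F test and Benjamini-Hochberg adjustment over all 15687 genes tested. A gene was called at an adjusted p under 0.05. Standard errors are the absolute log2 fold change over the square root of F. Alternatives used DESeq2 1.42.0, limma 3.58.1 on log2(FPKM + 1) or log2(FPKM + 0.1), other scalings and filters, a replicate block, and each library left out. Shares were compared by exact permutation.

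In simulated counts over 15687 genes, 100 genes were changed by 2-fold and 100 by 4-fold, and the rest were left unchanged. The si-STRIP2 against si-NC comparison recovered 88.0% and 98.0% of them, and 4.12% of its calls were unchanged genes. The changed genes were drawn at any level, and far fewer changed than were called in the data. These rates are therefore not rates for low-count members.

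The members and lists were chosen with earlier results of these data known. The named genes are the 9 members, 16 fixed regulators, receptors and enzymes, list genes called with at least a 2-fold change, and the 3 nearest profiles. Of the 16, 1 is not reported here. KRT20, an epithelial marker, met that rule at -1.01 (edgeR adjusted p = 0.00935), with 2 si-STRIP2 libraries over the filter's cut. Named outside the rule, after their values were seen, are the neighbours of the cluster, the other epithelial and other-cell markers, RHBDF2, IKBKB, CHUK and RELB.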

Additional observations from a re-analysis of the deposited data

How the results depend on the processing

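The 5 tested members stayed lower with an adjusted p under 0.05 in every fit that included them (74 values over 15 alternative fits, CXCL3 being in 14 of these). CXCL3 came nearest to that threshold, with a limma adjusted p of 0.0377 on log2(FPKM + 1) and 0.0418 on log2(FPKM + 0.1). The fitted fall was smallest with limma on log2(FPKM + 1), a pseudocount above or near the si-STRIP2 level of the low genes: -1.56 for CXCL8, -1.16 for CXCL2, -1.02 for CXCL1 and -0.45 for CXCL3. Leaving out each library gave -2.87 to -2.61 for CXCL8, -2.37 to -1.81 for CXCL2, -1.99 to -1.77 for CXCL1 and -0.32 to -0.20 for CXCL16. With the filter of at least 1 FPKM in 3 libraries, CXCL3 was not tested. All 4 members tested there were called, where 7488 of 12329 tested genes were. With no filter, 6 of 7 members tested were called, CCL20 included, where 8365 of 32799 tested genes were. The shares depend on the denominator: without CXCL16 in the sum, the share of CXCL1 was 3.47, of CXCL2 0.466, of CXCL3 8.74 and of CCL20 0.849 percentage points higher in si-STRIP2, and that of CXCL8 changed by -14.04 points, as the shares must then add up over the others. Same-numbered libraries did not deviate together (correlations across genes of -0.0858, -0.0133 and -0.0718), so the numbers were not taken to pair libraries. With the replicate block, 5 members were called, the value of CXCL8 was -2.78, and 8293 genes were called in place of 8599. Depth limits CXCL5, CXCL10, CXCL11 and CCL20.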

Other observations

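Of 24 cytokines, receptors and adaptors that can induce chemokine genes, 15 were tested, 7 were called lower, 5 higher and 3 were not called, where 27.0% of all tested genes were called lower and 27.8% higher. The median log2 fold change was -0.12, against 0.014 over all tested genes. IL1A, an epithelial alarm cytokine that induces CXCL8, had 18, 21 and 19 counts in si-NC and 13, 6 and 1 in si-STRIP2 (fitted log2 fold change -1.46). It passed the filter through si-NC, with 1 si-STRIP2 library over the cut, so its call is no support for a difference. IL18R1, a receptor subunit for interleukin 18, was lower (-1.09, SE 0.217, edgeR adjusted p = 6.58e-05). The 5 genes called higher changed by less than 2-fold, with log2 fold changes of 0.10 to 0.47.

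Of 10 genes for factors that bind or degrade chemokine messenger RNA, 5 were called lower, 3 higher and 2 were not called (median -0.041), beside the same 27.0% and 27.8% over all tested genes. ZFP36, which binds AU-rich elements and promotes decay, went from 18.8 ± 1.46 to 14.3 ± 0.877 FPKM (SD, n = 3, -0.40, edgeR adjusted p = 4.57e-06). ZC3H12A, a ribonuclease that limits inflammatory messages, was at 1.80, 1.98 and 2.45 FPKM in si-NC and 1.55, 1.55 and 1.65 in si-STRIP2 (-0.38, SE 0.139, edgeR adjusted p = 0.0198).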
